A study of Homo sapiens with 12 samples.

Results

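CRISP3, LCN2, SLPI, PI3 and MUC1 were examined as a small group of genes for secreted and cell-surface defence proteins of epithelia. All 5 symbols were found among the 11529 genes of the expression table. The group was put together with results of these same samples in view, in particular the change of CRISP3 in MDA-MB-468 cells and that of LCN2 in MDA-MB-231 cells. Their changes after SMARCA4 knockout (KO) are therefore given as a description without a p, and nothing is read from whether they passed a threshold in the fit of all genes. The levels of LCN2 and MUC1 in the 2 cell lines and the changes of related genes were tested. CRISP3, SLPI and PI3 are in the table only through MDA-MB-468 cells, because genes with low or even values over all 12 samples had been removed.

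RNA sequencing compared SMARCA4 KO with control cells in 2 triple-negative breast cancer lines, MDA-MB-468, which the study places in its SL subtype, and MDA-MB-231, which it places in the MSL subtype. SMARCA4 encodes an ATPase that drives the SWI/SNF chromatin remodeling complex, and the study asked what its loss does to cells of either subtype. Each of the 4 groups held 3 samples. They were MDA-MB-231 control (labelled wild type), MDA-MB-231 SMARCA4 KO, MDA-MB-468 control (labelled wild type) and MDA-MB-468 SMARCA4 KO. KO cells had received Cas9 and a guide RNA against a SMARCA4 exon by lentivirus and had been selected with puromycin. They were used as mixed pools of edited cells, not as clones. The study describes its edited control lines as carrying a nontargeting CRISPR/Cas9 vector, while the labels give the genotype of the sequenced controls as wild type, so which of these they were cannot be told from both together. The labels do not say whether replicates were separate cultures, so p-values measure only the spread between these samples, which may be technical. Values are log2(FPKM + 1), where FPKM is the fragment count scaled to transcript length and to all mapped fragments of the library, and the read depth is unknown.

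Saliva, milk, tears and airway fluid carry proteins that surface epithelia secrete against microbes and against the proteases of neutrophils. CRISP3 is a cysteine-rich secretory protein of saliva, seminal plasma and neutrophil granules. LCN2, also called NGAL, is a lipocalin that binds bacterial siderophores and so withholds iron. SLPI and PI3, the latter also called elafin, are small WAP domain proteins that inhibit neutrophil elastase. MUC1 is a heavily glycosylated mucin that is anchored in the apical membrane of glandular cells, so it is a surface rather than a purely secreted protein. LCN2, SLPI and PI3 are textbook targets of inflammatory signaling through NF-kappaB and C/EBP factors.

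In the annotation of the build used by the authors (GRCh37, GENCODE), the 5 protein-coding genes lie on 4 chromosomes. CRISP3 spans chr6:49695089-49712150 on the minus strand, LCN2 spans chr9:130911350-130915732 on the plus strand, and MUC1 spans chr1:155158300-155162707 on the minus strand. PI3 (chr20:43803543-43805185, plus strand) and SLPI (chr20:43880880-43883205, minus strand) are neighbors, 75.7 kb apart in the cluster of WAP domain genes. RefSeq promoters (GRCh38.p14) were found for CRISP3, LCN2 and MUC1. They are shown because the largest changes below belong to 2 of these genes and MUC1 differed between KO and control samples in both lines, as the 250 bases before the start site, 5′ to 3′ on the strand of the gene. Capitals mark matches, on either strand, to 5 sets of letters. The NF-kappaB letters were GGGNNNNNCC and the C/EBP letters were TTNNGNAA. The core of forkhead sites was searched as TGTTT wherever it occurred. An E2 box, which SNAI and ZEB repressors bind, was searched as CACCTG in the same windows. The TATA box was searched as TATAAA likewise.
CRISP3, chr6:49744389-49744638, minus strand: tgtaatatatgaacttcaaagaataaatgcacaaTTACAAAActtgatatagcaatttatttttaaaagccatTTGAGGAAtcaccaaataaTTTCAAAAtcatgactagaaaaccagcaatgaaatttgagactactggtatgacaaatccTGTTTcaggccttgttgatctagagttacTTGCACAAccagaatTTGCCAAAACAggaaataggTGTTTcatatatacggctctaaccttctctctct
LCN2, chr9:128149203-128149452, plus strand: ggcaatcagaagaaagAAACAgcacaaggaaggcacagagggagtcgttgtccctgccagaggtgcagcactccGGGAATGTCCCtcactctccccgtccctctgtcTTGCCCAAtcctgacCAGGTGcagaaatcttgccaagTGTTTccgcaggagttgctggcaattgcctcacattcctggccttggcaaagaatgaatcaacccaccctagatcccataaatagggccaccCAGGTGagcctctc
MUC1, chr1:155192916-155193165, minus strand: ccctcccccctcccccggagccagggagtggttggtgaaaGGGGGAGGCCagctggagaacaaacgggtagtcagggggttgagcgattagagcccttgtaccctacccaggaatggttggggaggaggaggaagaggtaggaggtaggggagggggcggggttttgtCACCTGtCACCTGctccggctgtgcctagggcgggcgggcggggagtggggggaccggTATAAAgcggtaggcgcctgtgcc

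The CRISP3 window was AT-rich, with a GC content of 32.4% against a median of 58% over 35093 promoter windows of the same length. It held 5 matches to the C/EBP letters and 3 to the forkhead core, of which 1 overlapped a C/EBP match. The LCN2 window (GC 54.8%) held 2 overlapping matches to the NF-kappaB letters from position -176 to -166, 1 C/EBP match, 2 E2 boxes and 2 forkhead cores. The MUC1 window (GC 66.0%) held 1 NF-kappaB match, 2 E2 boxes and a TATA box that began 24 bases before the start site. Such short motifs are common. Of all windows, 54.4% held the NF-kappaB letters, 33.2% the C/EBP letters, 40.4% the forkhead core, 17.5% the E2 box and 10.7% the TATA box. A match describes the sequence and is not evidence of a bound factor.

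The cell lines carried the marker genes of their labels. EPCAM, an epithelial adhesion molecule, was at 302 FPKM in MDA-MB-468 control and 13.97 FPKM in MDA-MB-231 control cells, and VIM, the mesenchymal intermediate filament vimentin, was at 2.61 and 1309 FPKM. Of 9 defining markers of neutrophils and other blood cells only CSF3R was in the table, at 11.4 FPKM in MDA-MB-468 control and 0.01 FPKM in MDA-MB-231 control cells. The targeted gene itself fell by 1.16 on the log2 scale in MDA-MB-468 (adjusted p = 0.014, limma) and by 1.57 in MDA-MB-231 (adjusted p = 0.0014). SMARCA4 mRNA was thus at 44.3% and 32.7% of the control FPKM in the 2 KO pools. This is a measure of the transcript, which an edit of the coding sequence need not remove.

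CRISP3 was a gene of MDA-MB-468 cells alone in this table, and it was far lower in their KO samples. In MDA-MB-468 control cells it stood at 97.6, 53.8 and 41.4 FPKM in replicates 1, 2 and 3. In the KO cells it stood at 12.2, 5.87 and 3.92 FPKM. The lowest control sample was above the highest KO sample. The mean fell from 64.3 ± 29.5 to 7.32 ± 4.31 FPKM (SD, n = 3 in each), which is 11.4% of control, and from rank 1755 to rank 8594 of the 11529 genes by FPKM. On the log2 scale the difference was -3.00 (SE 0.46). The spread between replicates was wide, and in both groups the sample with the lowest p number in its description was the highest. The descriptions do not say what the p number means, and control (p26 to p28) and KO samples (p25 to p27) share only p26 and p27. Between the samples of the same p number, CRISP3 was lower in KO cells by 3.84 (p26) and 3.48 (p27) on the log2 scale. In all 6 MDA-MB-231 samples CRISP3 was listed at 0, so no change could be seen there. In bulk RNA, fewer cells of a type and less RNA per cell cannot be told apart, here as for every gene below.

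LCN2 behaved otherwise: its level in MDA-MB-231 cells was higher in KO samples and came near that of MDA-MB-468 cells, where it hardly differed. In MDA-MB-231 control cells LCN2 was at 17.5, 32.5 and 33.5 FPKM (replicates 1 to 3), and in KO cells at 150.2, 139 and 91.0 FPKM. All 3 KO samples lay above all 3 control samples. The mean rose from 27.8 ± 8.93 to 127 ± 31.5 FPKM, a ratio of 4.56, with a log2 difference of 2.17 (SE 0.31). Its rank by FPKM went from 3982 to 758. Between samples of the same p number the difference was 3.03 (p10), 2.07 (p11) and 1.42 (p12), so the sizes were spread widely. Their one sign follows from the lack of overlap and adds nothing, and same-numbered samples of this line did not deviate together. In MDA-MB-468 cells LCN2 was at 178, 166 and 156 FPKM in control and at 152, 158 and 178 FPKM in KO samples. These groups overlapped fully, and the log2 difference was -0.04 (SE 0.08).

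MUC1 stood higher in the KO samples of one line and lower in those of the other. In MDA-MB-231 cells it was at 11.2, 24.7 and 23.6 FPKM in control and at 58.2, 60.4 and 42.6 FPKM in KO samples, a log2 difference of 1.45 (SE 0.32) and 271% of control. Control replicate 1 was the lowest and KO replicate 3 the lowest of its group for both LCN2 and MUC1. Without control replicate 1 the difference was 1.88 for LCN2 and 1.11 for MUC1. In MDA-MB-468 cells MUC1 was at 236, 212 and 219 FPKM in control and at 209, 131 and 136 FPKM in KO samples. The groups did not overlap, but KO replicate 1 lay just under the lowest control sample, and the log2 difference of -0.52 (SE 0.19) became -0.73 without it. Its mean there was 71.3% of control.

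The elastase inhibitors were genes of MDA-MB-468 cells, and they parted from each other. PI3 was at 44.7, 74.7 and 87.3 FPKM in MDA-MB-468 control and at 210.3, 136 and 135 FPKM in KO samples. Every KO sample was above every control sample, with a log2 difference of 1.23 (SE 0.30) and a mean of 233% of control. Its rank by FPKM went from 1615 to 628. SLPI, 75.7 kb away, was at 412, 450.3 and 453 FPKM in control and at 555, 412 and 333 FPKM in KO samples. Those groups overlapped, the log2 difference was -0.05 (SE 0.19), and the KO samples were more widely spread than the controls (SD 113 against 23.1 FPKM). In MDA-MB-231 cells PI3 stayed between 0.08 and 0.65 FPKM and SLPI between 0 and 0.25 FPKM, levels at which no change could be read.

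**Figure D1:**
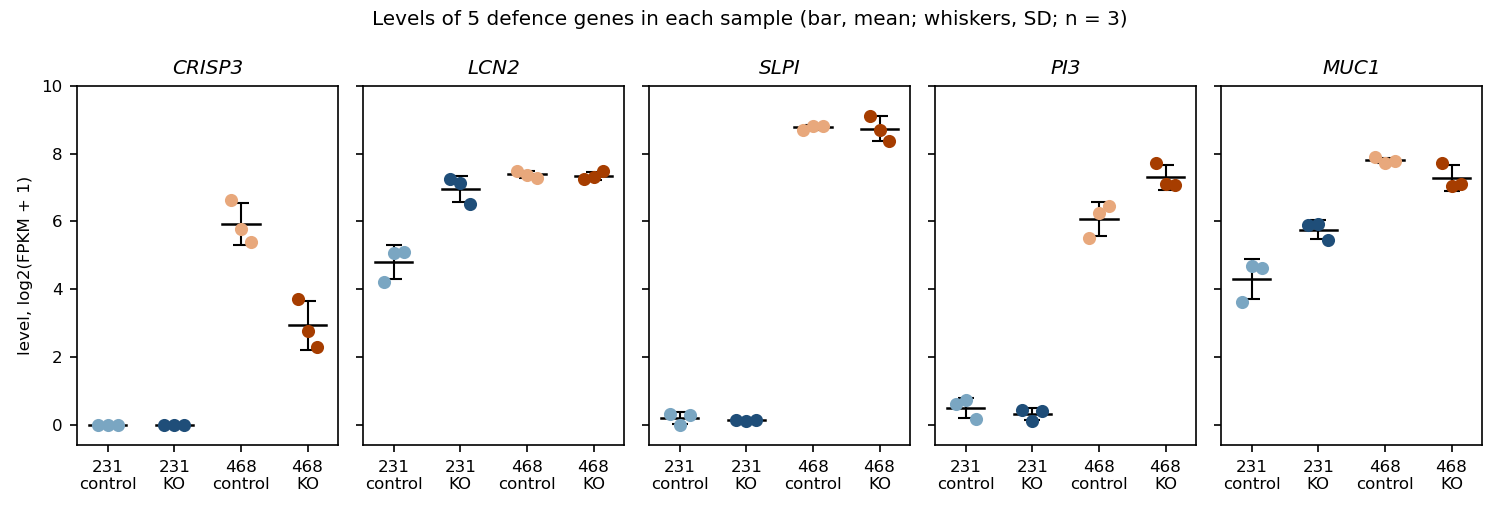
Level of the 5 genes in every sample as log2(FPKM + 1), by cell line and genotype. Points are samples (replicates 1 to 3 from left to right), horizontal bars are means and whiskers SD (n = 3). CRISP3 is at 0 in all MDA-MB-231 samples and falls in MDA-MB-468 KO cells, LCN2 of MDA-MB-231 KO cells comes near the MDA-MB-468 level, and SLPI and PI3 are near 0 in MDA-MB-231 cells.

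For the background to these differences, 2.14% of all genes passed the thresholds in MDA-MB-468 (adjusted p under 0.05 and an absolute log2 difference over 0.5), 1.33% with higher and 0.815% with lower values in KO cells, and 31% had 3 KO samples without overlap with 3 controls. In MDA-MB-231 3.7% passed, 2.39% higher and 1.31% lower, and 36% had no overlap. Of the 5 genes, CRISP3 was past the thresholds in MDA-MB-468 cells, as LCN2 and MUC1 were in the other line, but the genes were chosen on these contrasts and nothing is read from that count. With limma the call of CRISP3 was lost when any of the 3 control samples, KO replicate 2 or KO replicate 3 was left out, while its log2 difference stayed between -3.40 and -2.66. The call of LCN2 was lost without KO replicate 1 or KO replicate 2, with differences of 1.88 to 2.39 over all such fits, and that of MUC1 was kept only without control replicate 1. The change in MDA-MB-468 minus that in MDA-MB-231 was -2.21 for LCN2, -1.97 for MUC1 and 1.41 for PI3 (log2 scale), again as a description. PI3 was at 0.65 FPKM or less in all MDA-MB-231 samples, so its value rests on the change of 1.23 in MDA-MB-468.

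**Figure D2:**
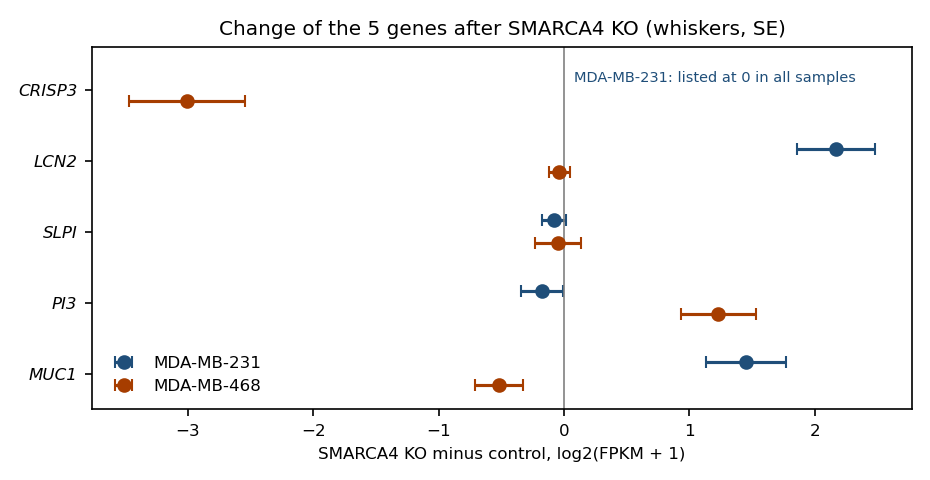
Log2 difference of SMARCA4 KO minus control cells for the 5 genes in each cell line, with SE from limma (n = 3 against 3). CRISP3 has no value in MDA-MB-231 cells, where it is listed at 0. The largest differences are -3.00 for CRISP3 in MDA-MB-468 and 2.17 for LCN2 in MDA-MB-231 cells, and MUC1 lies on opposite sides of 0.

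The levels of LCN2 and MUC1 in the 2 cell lines were tested in 1 fit of all 12 samples. In control cells both were higher in MDA-MB-468, with a log2 difference of 2.59 for LCN2 (SE 0.23, adjusted p = 3.5e-07) and 3.50 for MUC1 (SE 0.26, adjusted p = 8.4e-08). In FPKM this was a ratio of 5.99 for LCN2 and 11.2 for MUC1. The log2 difference was 5.58 for PI3 (SE 0.24) and 8.57 for SLPI (SE 0.15), given with no test, because the filter on low values had left these genes in the table through MDA-MB-468 alone. CRISP3, listed at 0 in MDA-MB-231, gets no fold. A difference between these lines is the rule rather than the exception, since 64.2% of all genes passed the thresholds in this contrast, 32.8% higher in MDA-MB-468 and 31.4% lower. This contrast uses the same control samples as the KO contrasts on which the genes were chosen. Low values of LCN2 and MUC1 in MDA-MB-231 controls count towards both, so their p-values here may be too small.

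Among KO cells, whose samples also took part in the choice of the genes, MUC1 was again higher in MDA-MB-468 (log2 difference 1.53, SE 0.26, adjusted p = 0.00016), with a ratio of FPKM of 2.95. SLPI (8.61, SE 0.15) and PI3 (6.98, SE 0.24) are again given with no test. The choice of LCN2 for its high values in MDA-MB-231 KO samples makes its difference here smaller. LCN2 did not pass the test, and nothing is read from that. Its log2 difference of 0.38 had an interval from -0.11 to 0.88 (adjusted p = 0.13), which leaves room for equal levels and for a difference of almost 1 log2 unit, although the lowest MDA-MB-468 KO sample (152 FPKM) was just above the highest MDA-MB-231 KO sample (150.2 FPKM). In this contrast 62.8% of all genes passed the thresholds, 33.2% of all being higher in MDA-MB-468, and 85.3% had groups without overlap.

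FPKM is per length, so the genes can also be ordered within a group. In MDA-MB-468 control cells SLPI led at 438 ± 23.1 FPKM (rank 192), followed by MUC1 at 222 ± 12.6, LCN2 at 167 ± 11.4, PI3 at 68.9 ± 21.9 and CRISP3 at 64.3 ± 29.5 FPKM. Neighbors in that order did not overlap, except PI3 and CRISP3. In MDA-MB-468 KO cells SLPI stayed first at 434 ± 113 FPKM, LCN2 (162), PI3 (160) and MUC1 (159) overlapped one another, and CRISP3 was last by a wide margin. In MDA-MB-231 control cells LCN2 (27.8 FPKM) and MUC1 (19.8 FPKM) overlapped, and in KO cells LCN2 was above MUC1 (53.7 ± 9.71 FPKM) in all samples. PI3 and SLPI, which overlapped in both groups, were below 1 FPKM there.

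The genes around them were set beside these values. Of the 2 other genes of the table within 500 kb of CRISP3, C6orf141, at 165.5 kb, was lower in KO cells of both lines, by -0.89 in MDA-MB-468 (adjusted p = 0.014) and -0.97 in MDA-MB-231 (adjusted p = 0.042), while CENPQ was at -0.11 and -0.29 and did not pass. None of the 25 neighbors of LCN2 and none of the 26 of MUC1 passed the thresholds in either line. Of all genes, 2.14% (MDA-MB-468) and 3.7% (MDA-MB-231) passed, so lists this short would hold few calls or none at those rates. Nothing is read from the lack of calls, and whether the LCN2 and MUC1 differences were local to these genes was not tested. Around SLPI and PI3, with 10 neighbors each, only TOMM34, a mitochondrial import factor, passed, with a fall in MDA-MB-231 of -0.51 (adjusted p = 0.0072).

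Related genes came from 9 lists of families and pathways, with 302 genes in all, of which 151 were in the table. The lists were chosen with earlier results of these data known, so nothing is read from the share of a list that passed. The closest relatives were few. Of the CRISP and CAP family, cysteine-rich secreted proteins, 3 of 13 genes were in the table and 0 passed in MDA-MB-468. In MDA-MB-231 the 1 gene that passed was GLIPR1, which fell from 32.1 to 17.2 FPKM (log2 difference -0.85, adjusted p = 0.034). Of lipocalins and partners of LCN2, 3 of 26 were in the table and 0 passed in MDA-MB-468. FABP5, a fatty acid binding protein, fell in MDA-MB-231 from 33.3 to 20.2 FPKM (-0.70, adjusted p = 0.018).

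Among WAP domain and other secreted protease inhibitors, 12 of 27 listed genes were in the table, and in MDA-MB-231 2 rose, 0 fell and 10 did not pass. SERPINA3, the acute-phase antichymotrypsin, rose from 1.53 to 7.39 FPKM (log2 difference 1.72, adjusted p = 0.0082), and TFPI2, an inhibitor of plasmin and related proteases, from 34.2 to 79.5 FPKM (1.19, adjusted p = 0.0054). Of the 12, 11 lay above 0 and the median was 0.20, against -0.01 over all genes. In MDA-MB-468 none of the 12 passed, and the median was -0.06 against 0.02. TFPI2 was there at 4.24, 4.24 and 3.81 FPKM in control and at 7.06, 14.5 and 21.7 FPKM in KO samples, without overlap but not past the test.

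Mucins, mucin-like membrane proteins and the enzymes that start mucin glycosylation counted 11 of 34 genes. GALNT3, which adds the first sugar of mucin-type glycans, fell in both lines, from 41.1 to 27.6 FPKM in MDA-MB-468 (-0.55, adjusted p = 0.033) and from 16.3 to 6.48 FPKM in MDA-MB-231 (-1.20, adjusted p = 0.0078). It was the only gene of the list that passed in MDA-MB-468, where 10 of 11 lay below 0 with a median of -0.21. In MDA-MB-231 GALNT6, of the same enzyme family, fell as well (-0.76, adjusted p = 0.012), PODXL2, a sialomucin, rose (0.55, adjusted p = 0.028), and the median of the list was 0.

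Of 32 other secreted defence proteins in the table (of 73 listed), CXCL2, a neutrophil chemokine, fell in MDA-MB-468 from 2.54 to 1.42 FPKM (-0.55, adjusted p = 0.044) and was the only one past the test. With the replicate number as a block its adjusted p was 0.050, short of the threshold. In MDA-MB-231 2 rose and 0 fell. Complement C3 was at 19.0, 34.3 and 31.7 FPKM in control and at 81.8, 87.9 and 61.3 FPKM in KO samples (1.44, adjusted p = 0.029). Its lowest samples were control replicate 1 and, among KO samples, replicate 3, as for LCN2 and MUC1. CXCL16 rose from 2.86 to 7.43 FPKM (1.13, adjusted p = 0.030). The median of the list was 0.15 in MDA-MB-231 and 0.03 in MDA-MB-468.

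The list with most genes in the table held inducers and regulators of defence genes, 50 of 67, among them receptors and transcription factors. In MDA-MB-468 0 rose and 1 fell: FOXA1, a luminal forkhead factor, went from 49.4 to 27.95 FPKM (-0.80, adjusted p = 0.032). In MDA-MB-231 3 rose, 2 fell and 45 did not pass. Those that rose were ELF3, an epithelial ETS factor (5.37 to 13.05 FPKM, 1.14, adjusted p = 0.031), TNFRSF1B, a TNF receptor (4.18 to 10.3 FPKM, 1.12, adjusted p = 0.010), and EHF, another epithelial ETS factor (69.4 to 98.8 FPKM, 0.51, adjusted p = 0.021). Those that fell were SPDEF, a factor of secretory cells (23.3 to 7.49 FPKM, -1.48, adjusted p = 0.022), and FOXA2, a forkhead factor (13.6 to 6.99 FPKM, -0.87, adjusted p = 0.0082). In MDA-MB-231 10% of this list and 3.7% of all genes passed. The list was chosen with earlier results known, so nothing is read from that share. The median there was -0.0021 for the list and -0.0064 for all genes.

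**Figure D3:**
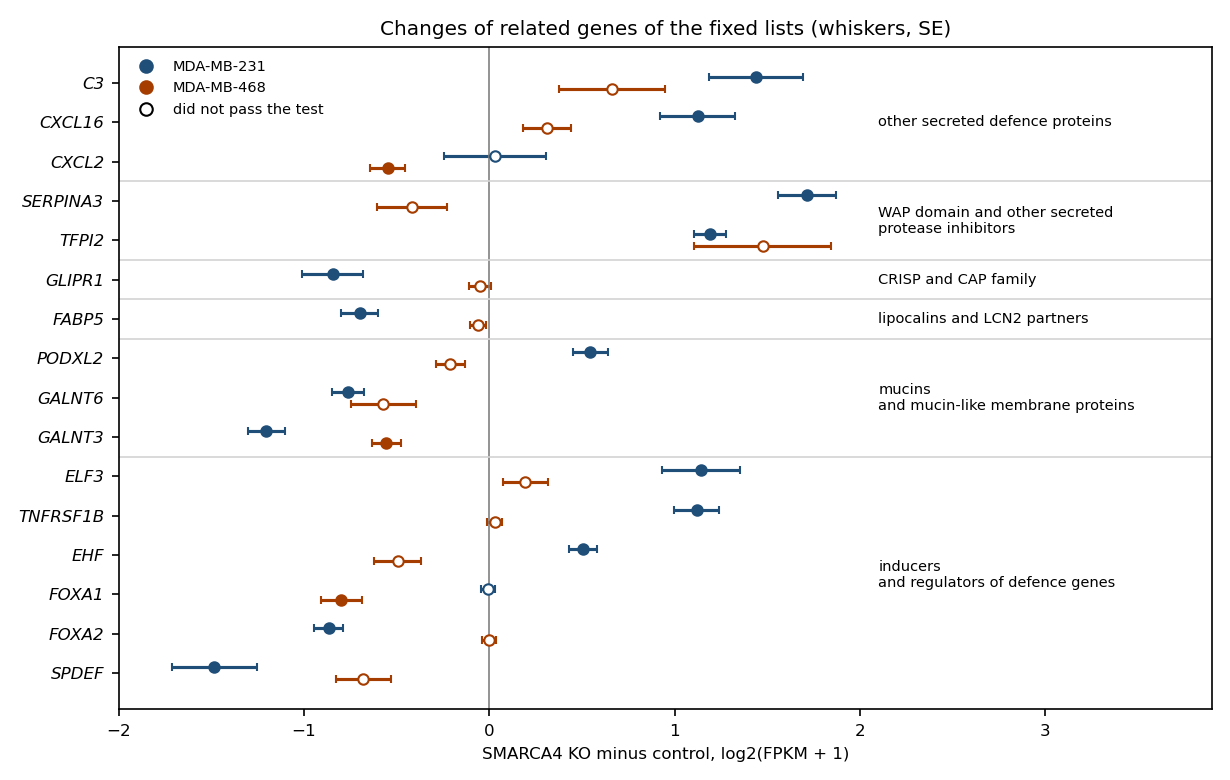
Log2 difference of SMARCA4 KO minus control cells in both lines for the related genes that passed the test in at least 1 line, by list, with SE from limma (n = 3 against 3). Filled points passed the test and open points did not. SERPINA3 (1.72) and C3 (1.44) lie farthest above 0 in MDA-MB-231 cells, and GALNT3 is filled below 0 in both lines.

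Markers of cell type moved beside these genes. In MDA-MB-231 4 of 25 epithelial markers rose and 0 fell, 21 lay above 0, and the median was 0.18. KRT15, a basal keratin, rose from 5.59 to 14.6 FPKM (1.25, adjusted p = 0.0051), CLDN3, a tight junction claudin, from 1.69 to 3.52 FPKM (0.75, adjusted p = 0.0082), CDH1, the adhesion protein E-cadherin, from 0.27 to 0.84 FPKM (0.54, adjusted p = 0.044), and ELF3 as given above. The summed FPKM of the 25 markers was 1092 to 1667 in control and 1669 to 1878 in KO samples, with KRT6A and KRT6B listed at 0 in all 6 samples and RAB25 in the controls. Of 12 mesenchymal markers 1 fell, the collagen cross-linking enzyme LOX (-0.54, adjusted p = 0.039), 9 lay below 0 with a median of -0.34, and their sum was 2522 to 2840 FPKM in control and 2170 to 2347 FPKM in KO samples. The part of these shifts in the values of LCN2 and MUC1 was not tested.

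In MDA-MB-468 the epithelial sum was 7816 to 8212 FPKM in control and 8950 to 9787 FPKM in KO samples, so it was higher where CRISP3 and MUC1 were lower. The sum was led by abundant keratins such as KRT8, which went from a mean of 1604 to 2266 FPKM, while EPCAM went from 302 to 283 FPKM. Single markers were split, 14 above 0 and 11 below, with a median of 0.07. Only KRT15 passed among the 25 (75.8 to 114 FPKM, 0.59, adjusted p = 0.034, or 0.053 with the replicate block). The mesenchymal sum was 788 to 856 FPKM in control and 449 to 615 FPKM in KO samples, and S100A4, its most abundant member, fell to 59.3% of the control FPKM (-0.77, adjusted p = 0.048, or 0.082 with the block). Most of that sum was S100A4 itself, at a mean of 789.6 FPKM in control and 468.5 FPKM in KO samples. The 12 markers did not fall together: 6 lay above 0 and 4 below, with a median of 0.01. ZEB2 and SNAI2 were listed at 0 in all 6 samples. The part of these shifts in the values of CRISP3, MUC1 and PI3 was not tested.

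Of 19 blood cell markers 5 were in the table, and their sum was 81.6 to 87.8 FPKM in MDA-MB-468 control and 45.7 to 112 FPKM in KO samples. In MDA-MB-231 it was 95.95 to 106 FPKM in control and 106 to 115 FPKM in KO samples. ITGB2, a leukocyte integrin subunit, rose in MDA-MB-468 (0.74, adjusted p = 0.033, or 0.066 with the block) and fell in MDA-MB-231 (-0.85, adjusted p = 0.020), where CD14, a receptor for bacterial lipopolysaccharide, rose (1.18, adjusted p = 0.029). OLFM4, a neutrophil and gut granule protein, was listed at 0 in all MDA-MB-231 samples.

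With the replicate block in MDA-MB-468, 11 genes of all lists passed in place of 6, and 2 of the 6, GALNT3 and FOXA1, remained. In MDA-MB-468 single samples decided the count for the lists and for all genes alike. With any 1 of the 3 controls, KO replicate 2 or KO replicate 3 left out, none of the list genes passed. Of all genes, 0 to 27 passed in these fits. With an unadjusted p under 0.05 (limma) and the same threshold on the log2 difference, 516 to 669 did. Without KO replicate 1, 17 list genes and 474 of all genes passed. In MDA-MB-231 6 to 15 list genes and 99 to 311 of all genes passed when a sample was left out.

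The difference of the change between the lines was tested for the listed genes in the fit of all 12 samples, where 8.71% of all genes passed (4.29% higher in MDA-MB-468 relative to MDA-MB-231 and 4.41% lower). Of the 12 protease inhibitors 0 were higher and 2 lower. Of the 11 mucin genes 1 was higher and 2 were lower, of the 32 other defence proteins 2 and 5, and of the 50 regulators 2 and 7. Median differences were -0.26, -0.10, -0.24 and 0.0029, against 0.02 over all genes. With samples scaled to the same 75th percentile, 394 of all genes were higher and 610 lower in place of 495 and 509.

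In control cells the same lists held genes higher in either line. A gene near 0 in one line is in the table through the other, so the direction of such genes was set by the filter on low values. Of the other secreted defence proteins 16 were higher in MDA-MB-468 and 14 higher in MDA-MB-231. S100A9 and S100A7, antimicrobial calcium-binding proteins of squamous epithelia, were at 3240.0 and 1199 FPKM in MDA-MB-468 control and listed at 0 in MDA-MB-231 control cells. PTX3, a soluble pattern receptor (97.6 FPKM), and the chemokine gene listed as IL8 (230.0 FPKM) led in MDA-MB-231, with log2 differences of -6.53 and -5.16. Of the protease inhibitors 4 were higher in MDA-MB-468, led by SERPINA3 (107 against 1.53 FPKM) and SPINT1 (95.4 against 3.11 FPKM), and 6 in MDA-MB-231, led by CST3 (407 FPKM, listed at 0 in MDA-MB-468) and SERPINA1 (85.1 against 0.23 FPKM).

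Of the regulators 24 were higher and 21 lower in MDA-MB-468. ELF3 (379 against 5.37 FPKM) and FOXA1 (49.4 against 0.01 FPKM) led in MDA-MB-468, and IL6 (90.9 against 0.34 FPKM) and FOXA2 (13.6 FPKM, listed at 0 in MDA-MB-468) in MDA-MB-231. Mucin genes higher in MDA-MB-468 numbered 6 and included MUC15 (16.8 FPKM, listed at 0 in MDA-MB-231) and CD164 (190.5 against 45.7 FPKM). Those higher in MDA-MB-231 numbered 3 and included GCNT1 (13.01 against 0.12 FPKM) and PODXL (80.5 against 20.5 FPKM). All 25 epithelial markers were higher in MDA-MB-468, with a median difference of 3.54, and 11 of 12 mesenchymal markers were higher in MDA-MB-231.

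Finally, the genes whose pattern was most like CRISP3 and LCN2 were sought by Pearson r over the 12 samples, without a test. The 12 points fall into 4 groups and share cell line and genotype, which set most of such an r. XBP1, a factor of secretory cells and the unfolded protein response, was most like CRISP3 (r = 0.997). It was at 266 ± 30.1 FPKM in MDA-MB-468 control, 115 ± 27.7 in MDA-MB-468 KO, 41.6 in MDA-MB-231 control and 40.3 FPKM in MDA-MB-231 KO cells. ALDH1A1, a retinaldehyde dehydrogenase (r = 0.993, 18.6 FPKM in MDA-MB-468 control and 4.71 in KO), ERGIC1 (0.992), SDC1, the surface proteoglycan syndecan-1 (0.990), and GPD1L (0.988) followed. Of these only ALDH1A1 was near 0 in MDA-MB-231, as CRISP3 was.

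METRNL, a secreted factor, was most like LCN2 (r = 0.984), at 3.56 ± 0.61, 7.33 ± 1.48, 8.36 ± 0.40 and 7.98 ± 0.12 FPKM in MDA-MB-231 control, MDA-MB-231 KO, MDA-MB-468 control and MDA-MB-468 KO cells. NUP210, a nuclear pore protein (0.972), the long noncoding RNA UCA1 (0.970), MALL (0.961) and the mitochondrially encoded MT-CO2 (0.960) came next. MT-CO2 is among the most abundant transcripts, and it went from 13.7 ± 0.06 to 14.0 ± 0.10 on the log2 scale in MDA-MB-231, a smaller step than that of LCN2. After the mean of each cell line was subtracted, 0 of the 5 genes remained for CRISP3 and 0 of the 5 for LCN2. CYP4B1 (r = 0.998), CLDN10 (0.994), FOXA1 (0.992), CRYAB (0.991) and TMPRSS4 (0.991) were then the 5 of CRISP3. As CRISP3 was listed at 0 in MDA-MB-231, these r rest on its MDA-MB-468 samples. Those of LCN2 were DHRS3 (0.9915), EEF1A2 (0.9913), PPL (0.989), FAM83H (0.987) and SEZ6L2 (0.986). Over the 12 samples without centring, r with LCN2 was -0.49 for EEF1A2 and -0.46 for PPL.

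**Figure D4:**
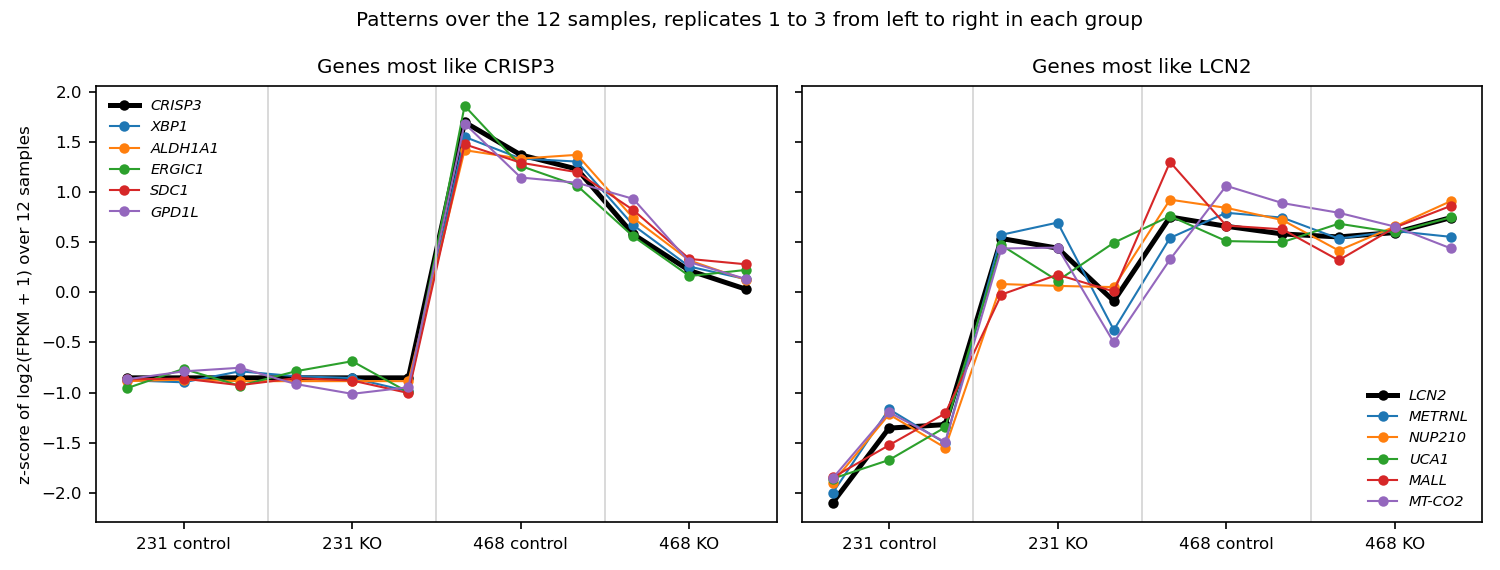
Patterns of CRISP3 and LCN2 (black) and of the 5 genes most like each over the 12 samples, as z-scores of log2(FPKM + 1) over all samples of a gene. Within each group the replicates 1 to 3 run from left to right and have no order. The genes were picked for this likeness, so the shared course of the lines is no finding.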

How the data were processed

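RNA sequencing of 12 samples of 2 breast cancer cell lines was used, 3 per group. Per the methods of the study, the authors used Trimmomatic for trimming, STAR for alignment to hg19 and RSEM for FPKM, and removed genes with an average or SD of FPKM under 1. The deposited values are log2(FPKM + 1) for 11529 genes. In linear FPKM, 99.79% of them were whole multiples of 0.01 within 0.0002. Depth is unknown, so no counting interval or count test was made. Whether counting used strand is not given in the sources used here.

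Groups and replicate numbers were taken from sample titles. Limma 3.58.1 in R 4.3.3 (lmFit, eBayes without trend) was run on the deposited log2 values of all genes, 3 KO against 3 control samples per cell line, and in 1 fit of 4 groups for contrasts between lines. Thresholds were a Benjamini-Hochberg adjusted p under 0.05 over all 11529 genes and an absolute log2 difference over 0.5. A log2(FPKM + 1) difference understates the change of low genes. The fit was run on simulated data with large changes and independent noise. That run does not cover changes near the thresholds or samples that vary together. MDA-MB-468 samples of the same replicate number deviated weakly together (r of deviations from group means 0.25, 0.16 and 0.12). No r of differently numbered samples was computed for comparison. The main fit did not pair samples, and the replicate number was a block only in an alternative fit. In MDA-MB-468 it joins other samples than the p number does. In MDA-MB-231 same-numbered samples did not deviate together (-0.05, 0.07 and -0.11).

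The 5 genes and all lists were chosen with earlier results of these data known. Named from each list were, per direction, up to 3 genes past the test in a KO contrast and up to 2 in the control contrast with the largest difference, and for CRISP3 and LCN2 the 5 genes of highest r. SMARCA4, the markers checked and genes within 500 kb were named besides. Genes named after cell line centring, and TOMM34, C6orf141 and CENPQ, were chosen after their values were seen. Alternatives were a pseudocount of 0.1, a filter at a mean log2 of 1, 75th percentile scaling, quantile normalization, an intensity trend, blocks, other sample sets and leaving out each sample. Promoters were read from RefSeq (GRCh38.p14), and gene positions from the GRCh37 annotation, with no conversion between builds. Python 3.11.15 and matplotlib 3.10.9 were used for promoters and figures.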

Additional observations from a re-analysis of the deposited data

Results flagged for a closer look

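A difference between the cell lines was examined for 23 named genes, which were SMARCA4 and genes of the lists. Of these, 14 differed in their change after SMARCA4 KO by the interaction test (limma, adjusted p under 0.05 over all genes and an absolute log2 difference over 0.5). Over all genes the share was 8.71%. Values are the log2 change in MDA-MB-468 minus that in MDA-MB-231 cells. The list genes were named for their change in a KO contrast, so that some difference was built in and the share is not comparable. CDH1, which was not among the 23, passed as well (-0.76, adjusted p = 0.014).

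Among secreted proteins and mucin genes, SERPINA3 differed by -2.13 (adjusted p = 0.00058), CXCL16 by -0.82 (0.045), PODXL2 by -0.76 (0.004), GALNT3 by 0.65 (0.012), GLIPR1 by 0.80 (0.015) and FABP5 by 0.64 (0.0054). GALNT3 fell in both lines, more in MDA-MB-231.

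Among regulators, TNFRSF1B differed by -1.09 (adjusted p = 0.00074), EHF by -1.001 (0.0024), ELF3 by -0.95 (0.026), FOXA1 by -0.79 (0.0027) and FOXA2 by 0.87 (5e-04). FOXA1 was at 0.02 FPKM or less in MDA-MB-231. In MDA-MB-468, FOXA2 was listed at 0 and TNFRSF1B, FABP5 and GLIPR1 were at 0.25 FPKM or less in all 6 samples. For these 5 genes the line with hardly any transcript could show no fall and did not rise, so the difference restates the change in the other line.

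Among markers, ITGB2 differed by 1.59 (adjusted p = 0.00036), with a rise in MDA-MB-468 (adjusted p = 0.066 with the replicate block) and a fall in MDA-MB-231, CD14 by -1.75 (0.026) and KRT15 by -0.66 (0.0064). KRT15 was higher in KO cells of both lines, more so in MDA-MB-231, and in MDA-MB-468 its adjusted p was 0.053 with the replicate block.

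MUC1 was flagged because every KO sample was above the controls in MDA-MB-231 and below them in MDA-MB-468, a difference of -1.97. Groups without overlap were common, at 36% of all genes in MDA-MB-231 and 31% in MDA-MB-468. The share of genes with opposite sides in the lines was not computed. In MDA-MB-468 KO replicate 1 (209 FPKM) lay just under the lowest control sample (212 FPKM). The difference is given with no p, since MUC1 was chosen on these contrasts. Groups of 3 samples were too small to look for outlying samples.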

How the results depend on the processing

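Of 1131 recomputed values of single genes, 0 reversed among those past the thresholds or larger than their SE. For 1002 the call was unchanged or, where no test was given, the value moved within 1 SD. Another 127 no longer passed and 2, which have no test, moved by over 1 SD. Differences near 0 could change sign, as that of SLPI in MDA-MB-468 did (-0.24 to 0.13 when each sample was left out). Counts moved more. In MDA-MB-468, 1 of the 5 genes, 6 list genes and 247 of all genes passed. With genes under a mean log2 of 1 left out these were 2, 19 and 424, and in 1 fit of all 12 samples 2, 21 and 537. With the p number as a replicate block, which uses only the shared p numbers for the contrast, they were 0, 0 and 0 (limma). At an unadjusted p under 0.05, with the same threshold on the log2 difference, 885 of all genes passed. With the replicate number as a block, 11 list genes passed. Leaving out each sample gave 0 to 2 of the 5 genes, 0 to 17 list genes and 0 to 474 of all genes. In MDA-MB-231, 2 of the 5 genes, 20 list genes and 426 of all genes passed. A pseudocount of 0.1 gave 1 of the 5, and 1 fit of all samples 32 list genes. The replicate block, where the numbers did not pair the samples, gave 0, 0 and 0 (limma, smallest adjusted p 0.052). At an unadjusted p under 0.05, with the same threshold on the log2 difference, 576 of all genes passed. Leaving out each sample gave 0 to 2, 6 to 15 and 99 to 311. For the difference between lines, leaving out each sample gave 3 to 4 of the 5 genes, 19 to 45 list genes (45 without MDA-MB-468 KO replicate 1) and 724 to 1190 of all genes. Between control cells it gave 138 to 140 list genes and 7354 to 7419 of all genes, and between KO cells 139 to 141 and 7213 to 7268. CRISP3, SLPI and PI3 were in the table through MDA-MB-468 alone, so no count of the 5 genes is given for these contrasts. The replicate block changed no count of the contrasts between lines by over 1.5 times. Of the 5 genes most like CRISP3 or LCN2, 0 and 0 remained after line means were subtracted. The causes were not tested. Unknown depth limits what can be said of levels under 1 FPKM.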
